A study of Homo sapiens with 38 samples.

Results

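The CXC chemokines that attract neutrophils were followed in human A549 cells exposed to SiO2 nanoparticles (SiO2 NPs), a fumed silica. The 6 genes are CXCL1, CXCL2, CXCL3, CXCL5, CXCL6 and CXCL8, the last of which is also called IL8. They were found through the transcript accessions of the array, and they made up 6 of the 19720 genes named on it and 8 of its 34127 probes, with 2 probes each for CXCL1 and CXCL2 and 1 probe for each of the others. Of the 8 probes, 7 passed the filter on dim probes at 24 h and 6 in the comparisons with controls at 72 h, and the CXCL6 probe passed it nowhere.

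These chemokines are small secreted proteins that share a glutamate-leucine-arginine motif before their first cysteine. They draw neutrophils out of the blood along a gradient, chiefly through the receptor CXCR2, and CXCL6 and CXCL8 also bind CXCR1. Epithelial cells of the airway and the alveoli make them when interleukin 1, tumor necrosis factor, microbial products or cell injury switch on NF-kB and AP-1, and their mRNAs decay quickly because of AU-rich elements.

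A549 is an established human lung adenocarcinoma line used as a model of the alveolar epithelium, and every group was kept in serum-free medium, the control groups without NPs. Array set A held 4 arrays each of control cells and of cells exposed to 0.1 or 1.0 μg/cm2 for 24 h, and set B held 4 control arrays and 4 arrays of cells exposed to 1.5 μg/cm2 for 24 h. Set C held 3 arrays in each of 6 groups, namely control cells, 3.0 μg/cm2 and 6.0 μg/cm2, each at 24 h and at 72 h, so that both doses shared their control arrays at each time. The deposited descriptions of the 72 h exposed samples give 24 h, and the 72 h of their source names was used. The labels give each array of a group its own biological repeat number and an equal technical number. The methods describe 3 biological replicates per condition, whereas sets A and B held 4 arrays per group. The labels thus do not settle how independent the arrays of a group are, and the tests treated them as independent. All values below are log2 differences between a probe's processed signal and its array's 75th percentile, and groups were compared with limma. A probe was called at a Benjamini-Hochberg adjusted p under 0.05 over all probes tested and a change of 1.5-fold or more in either direction.

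The share of probes well above background ran from 54.4% to 73.55% over the arrays. The epithelial genes KRT8, KRT18, EPCAM and CDH1 and the alveolar genes ABCA3, NAPSA and SFTPC were well above background on all 38 arrays. The further alveolar genes NKX2-1, SFTPB and SFTPA1 were so on 1, 2 and 11 arrays. Of the leukocyte genes, MPO was well above background on 0 arrays, S100A8 and S100A9 on 1 array each, ELANE on 21, and PTPRC, ITGB2 and CSF3R on all 38. At 6.0 μg/cm2 and 24 h, 0 of 3 tested leukocyte genes rose, and PTPRC and ITGB2 fell by 0.63 and 0.86. Of 7 tested alveolar epithelial genes, EPCAM, CDH1 and SFTPC fell at 6.0 μg/cm2 after 24 h, by 0.80, 1.22 and 0.81 on the log2 scale, and the fibroblast gene COL1A1 fell by 1.85. After 72 h EPCAM and CDH1 fell by 1.17 and 1.42, COL1A1 fell by 1.65, and the leukocyte genes ITGB2 and ELANE fell by 1.77 and 2.14. Over all probes tested at this dose, 3.95% were called higher and 5.37% lower after 24 h, and 6.63% and 10.5% after 72 h. No gene of the endothelial list was called, and the part of these changes in the chemokine values was not tested. In bulk RNA, fewer cells that express a gene and less RNA of it per cell cannot be told apart.

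All 6 genes lie together on chromosome 4. The bases directly before the transcription start are shown for CXCL8, CXCL2 and CXCL5, the genes whose probes were called at 6.0 μg/cm2 after 24 h, with the match to the NF-kB motif in capitals. They are RefSeq sequences of GRCh38.p14, each 150 bases long and written 5′ to 3′ on the strand of the gene, for CXCL8 at chr4:73740419-73740568 on the plus strand, for CXCL2 at chr4:74099196-74099345 on the minus strand and for CXCL5 at chr4:73998678-73998827 on the minus strand.
CXCL8: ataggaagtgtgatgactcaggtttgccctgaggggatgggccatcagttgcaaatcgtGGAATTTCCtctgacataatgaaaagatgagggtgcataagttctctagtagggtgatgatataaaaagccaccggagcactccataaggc
CXCL2: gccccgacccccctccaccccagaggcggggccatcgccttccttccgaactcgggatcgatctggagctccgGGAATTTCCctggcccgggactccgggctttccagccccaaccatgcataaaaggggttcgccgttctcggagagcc
CXCL5: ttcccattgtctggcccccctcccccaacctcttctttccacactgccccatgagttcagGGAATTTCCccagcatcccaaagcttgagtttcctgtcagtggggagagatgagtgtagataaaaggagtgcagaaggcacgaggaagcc
The letters GGAATTTCC were searched on both strands. All 6 genes held them in this window, starting between 77 and 91 bases before the transcription start (−77 for CXCL2, −78 for CXCL1 and CXCL3, −89 for CXCL6, −90 for CXCL5 and −91 for CXCL8), against 0.253% of the 35116 RefSeq promoters over the same 150 bases. CXCL8 also held TGACTCA, a match to the AP-1 motif TGANTCA, which 4.17% of all promoters held over these bases, and TATAAA starting 31 bases before the start (−31), which 6.71% held. Neither was found in the other 5 genes. In these windows CXCL1, CXCL2 and CXCL3 were 86.3% to 88.8% identical and CXCL5 and CXCL6 89.4%, whereas CXCL8 was 44% to 50.9% identical to the others. A match describes these letters only, and the arrays do not show what binds there.

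CXCL1, CXCL2, CXCL3 and CXCL5 were measured well above background on all 38 arrays, and CXCL8 on 30. The 8 arrays on which CXCL8 was not well above background were 1 control array of set B, all 3 control arrays at 72 h, 1 array at 3.0 μg/cm2 and 72 h, and all 3 arrays at 6.0 μg/cm2 and 72 h. CXCL6 was below this level on all 38 arrays, with processed signals between 1.84 and 10.4, and no fold change is given for it. No spot was saturated, including that of CXCL5, whose processed signal ran from 9902 to 79582.
The control cells at 24 h differed between the array sets. CXCL8 averaged −4.37 ± 0.45 in set A (SD, n = 4), −5.22 ± 0.52 in set B (SD, n = 4) and −5.87 ± 0.35 in set C (SD, n = 3). CXCL2 (A_23_P315364) averaged 3.39 ± 0.06, 2.01 ± 0.19 and 2.02 ± 0.15 in these sets, and CXCL5 4.54 ± 0.12, 4.08 ± 0.33 and 4.66 ± 0.05. The highest and lowest control means of the tested probes lay between 0.58 and 1.51 apart on the log2 scale. The gaps for CXCL2 (1.38 and 1.19) and CXCL3 (1.05) were wider than any difference between exposed and control cells at these probes. The sets had their own slides, scan days and, for set A, scanner software version, so that set and culture cannot be told apart, and no test was made between sets.

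**Figure D1:**
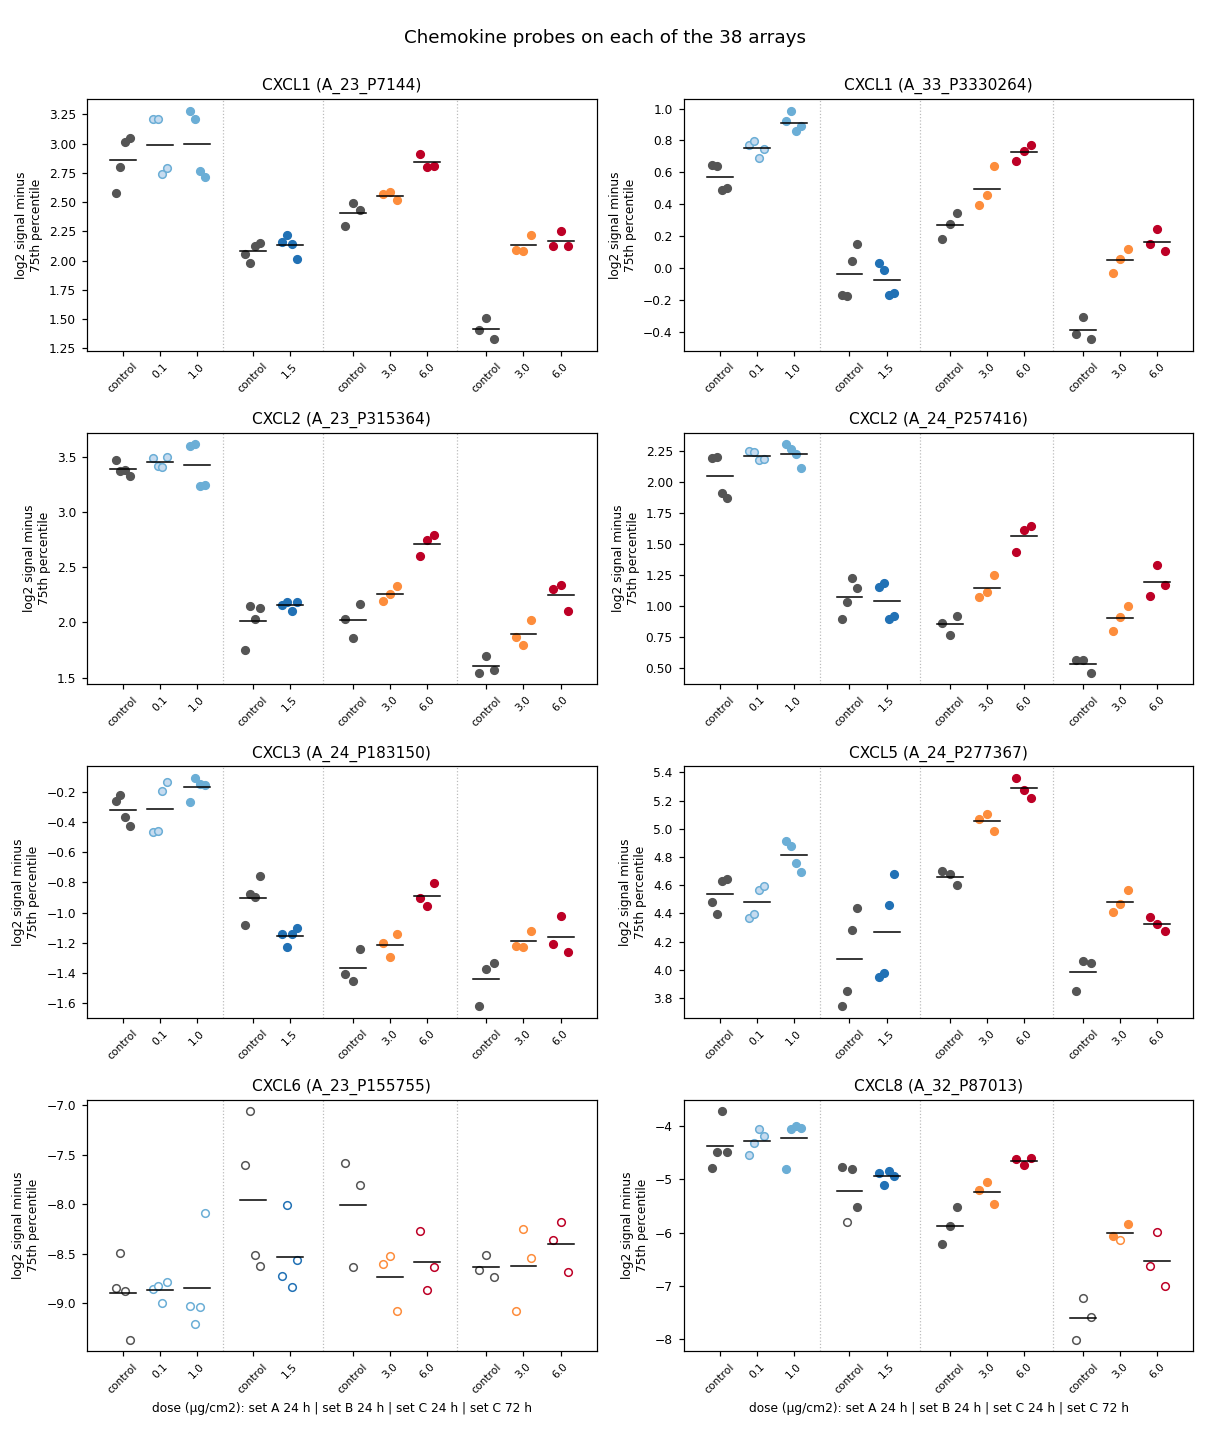
Each panel shows 1 probe, with log2 signal minus the 75th percentile of the array on the vertical axis and the groups of the 3 array sets on the horizontal axis, 1 point per array and a line at the group mean. Open points were not well above background, as for CXCL6 on all 38 arrays and for CXCL8 on 8. In set C at 24 h every array at 6.0 μg/cm2 lies above every control array at all 7 tested probes. The share of all probes that did so was not counted.

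At the lower doses no chemokine probe was called. At 0.1 μg/cm2, 0 of 7 tested probes were called, against 0% of all 21699 probes tested, of which 2049 had an unadjusted p under 0.05. At 1.0 μg/cm2, 0 of 7 were called against 0.00948% of all probes, and at 1.5 μg/cm2, 0 of 7 against 2.48%. An unadjusted p under 0.05 was reached by 1, 2 and 1 of 7 chemokine probes at these doses, against 9.44%, 17.6% and 16.7% of all probes tested.
CXCL1, a chemokine also known as GRO-alpha, came nearest to the threshold at 1.0 μg/cm2. Its probe A_33_P3330264 read 0.65, 0.64, 0.49 and 0.50 on the control arrays and 0.92, 0.99, 0.86 and 0.89 on the exposed arrays. All exposed arrays lay above all control arrays, by 0.34 on average (SE 0.06, adjusted p = 0.0917 with limma). The other CXCL1 probe, A_23_P7144, read 2.57, 2.80, 3.02 and 3.05 on the control arrays and 3.28, 3.21, 2.76 and 2.72 on the exposed arrays. These overlapped, with a mean difference of 0.13 (95% confidence interval −0.23 to 0.50), replicates 1 and 2 being higher on exposure and replicates 3 and 4 lower. CXCL5, an epithelial chemokine also known as ENA-78, was 0.27 higher at 1.0 μg/cm2 (SE 0.08, adjusted p = 0.171 with limma), from 4.48, 4.39, 4.63 and 4.64 on control arrays to 4.92, 4.88, 4.76 and 4.69 on exposed arrays, without overlap. In replicates 1 to 3 of set A the control array lay at position 1 of the slide and the array at 1.0 μg/cm2 at position 2. Replicate 4 lay at position 4 in both groups. The 75th percentile was 1847 to 2102 on these control arrays and 2506 to 2945 at 1.0 μg/cm2. The part of position and brightness in these differences was not tested.
At 1.5 μg/cm2, control and exposed arrays shared each slide, and replicates 1 and 2 had another scan day than replicates 3 and 4. The control array always lay at position 1 of the slide and the exposed array at position 4. Position and exposure thus cannot be told apart within a slide. CXCL3, also known as GRO-gamma, read −1.08, −0.88, −0.90 and −0.76 on control arrays and −1.14, −1.23, −1.14 and −1.10 on exposed arrays. It was lower on all 4 slides, with a mean difference of −0.25 (SE 0.09, adjusted p = 0.196 with limma), and by −0.20 and −0.30 within the scan days. CXCL1 (A_33_P3330264) and CXCL2 (A_24_P257416) differed in sign between the scan days. They gave 0.18 and 0.21 on the day of replicates 1 and 2, and −0.26 and −0.28 on that of replicates 3 and 4. Over the 7 tested probes, the exposed array was higher in 17 of the 28 pairs on a slide. The 7 probes share the same 4 slides, so that these pairs are not independent, and the share over all probes was not counted.

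At 24 h and 6.0 μg/cm2, CXCL8, CXCL2 and CXCL5, which are 3 of the 6 genes, rose against control cells. CXCL8 was 2.34-fold higher, CXCL2 1.62-fold and 1.64-fold by its 2 probes, and CXCL5 1.54-fold. CXCL1 and CXCL3 passed the adjusted p with fold changes between 1.35 and 1.39, under the fold threshold, and CXCL6 was not tested. Of the 7 tested probes, 4 were called, against 9.32% of all 22176 probes tested. On all 7 no exposed array read as low as any control array. The share of all probes that separated in this way was not counted. An unadjusted p under 0.05 in limma was reached by all 7, against 45.4% of all probes. The chemokine probes had a median log2 fold change of 0.63, and all probes tested one of −0.03.
CXCL8, the archetype of the family and the human chemokine with the strongest pull on neutrophils, had the largest difference. It read −6.22, −5.88 and −5.52 on the control arrays, −5.20, −5.05 and −5.47 at 3.0 μg/cm2 and −4.62, −4.72 and −4.60 at 6.0 μg/cm2. The 3 groups did not overlap, and the arrays at 6.0 μg/cm2 lay closest together. The log2 fold change at 6.0 μg/cm2 was 1.23 (SE 0.17, adjusted p = 0.00237 with limma). The signal behind it was dim, with processed signals of 17.7 to 22.5 on control arrays and 43.0 to 47.4 at 6.0 μg/cm2. With normexp background correction the log2 fold change was 0.63 (adjusted p = 0.198 with limma) and with the uncorrected values of the series matrix 0.32 (0.0969), and the call was lost under both.
CXCL2, which is also known as MIP-2-alpha and is made early after NF-kB activation, was raised to the same extent on both of its probes. Probe A_23_P315364 read 2.03, 1.86 and 2.16 on control arrays and 2.60, 2.75 and 2.79 at 6.0 μg/cm2. Probe A_24_P257416 read 0.86, 0.76 and 0.92 on control arrays and 1.43, 1.61 and 1.64 at 6.0 μg/cm2. On both probes the exposed arrays stood clear of all control arrays. The log2 fold changes were 0.70 (SE 0.09, adjusted p = 0.00232 with limma) and 0.71 (SE 0.08, 0.00109), and both calls held under every setting in the closing section.
CXCL5 read 4.70, 4.68 and 4.60 on control arrays, 5.07, 5.11 and 4.99 at 3.0 μg/cm2 and 5.36, 5.28 and 5.22 at 6.0 μg/cm2. Its groups stood in steps without overlap, and it had the lowest adjusted p of the chemokines, 0.000696 by limma, for a log2 fold change of 0.63 (SE 0.06). The normexp values gave 0.55, under the fold threshold.
CXCL1 (A_23_P7144) read 2.30, 2.49 and 2.43 on control arrays and 2.91, 2.80 and 2.81 at 6.0 μg/cm2, a log2 fold change of 0.44 (SE 0.07, adjusted p = 0.00441 with limma), and its other probe gave 0.46 (SE 0.06, 0.00249). CXCL3 read −1.41, −1.45 and −1.24 on control arrays and −0.90, −0.95 and −0.81 at 6.0 μg/cm2, a log2 fold change of 0.48 (SE 0.08, adjusted p = 0.0045 with limma).

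**Figure D2:**
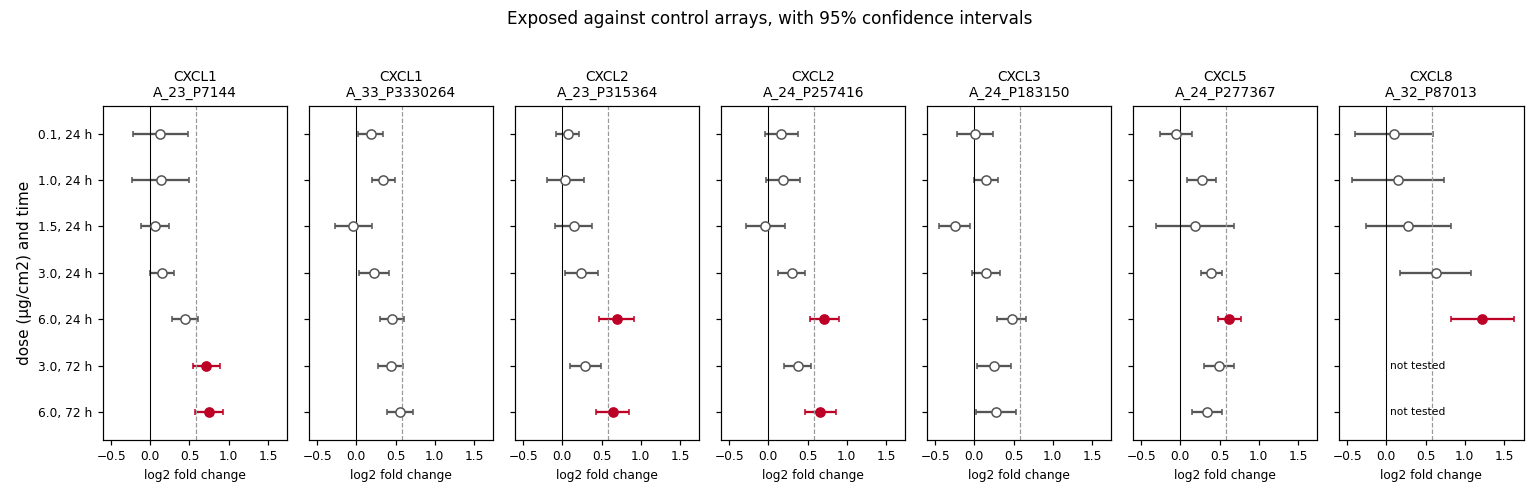
Log2 fold change of each tested chemokine probe (horizontal axis) at each dose and time (vertical axis), with 95% confidence intervals from limma; filled red points passed both thresholds and the dashed line marks a fold change of 1.5. The 4 called probes at 6.0 μg/cm2 and 24 h are those of CXCL2, CXCL5 and CXCL8, and CXCL8 was not tested at 72 h.

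At 3.0 μg/cm2 and 24 h the same chemokines lay above control cells by smaller amounts, and 0 of 7 tested probes were called, against 2.88% of all 22096 probes. All 7 differences were positive and 6 were without overlap, the exception being CXCL3. The share of all probes without overlap was not counted. An unadjusted p under 0.05 in limma was reached by 5 of the 7, against 28.8% of all probes. CXCL5 (log2 fold change 0.39, SE 0.06, adjusted p = 0.00844 with limma) and CXCL2 by A_24_P257416 (0.30, SE 0.07, 0.0422) passed the adjusted p but not the fold threshold. CXCL8 reached 1.55-fold with a limma adjusted p of 0.0811. It stood 1.01 and 0.83 above the control array on the slides of replicates 1 and 2 and 0.05 above it on the slide of replicate 3. Without control replicate 3, CXCL8 was called at this dose and the count became 1.
A slide of set C held the control array, both exposed arrays of 24 h and the 72 h control array of the same replicate number, which allowed the doses to be set against each other within slides. On each slide the 24 h control lay at position 1, 3.0 μg/cm2 at 2, 6.0 μg/cm2 at 3 and the 72 h control at 4. Within a slide, dose and position thus cannot be told apart. Over the 7 tested probes and 3 slides, the array at 3.0 μg/cm2 was above the control array in 21 of 21 pairs. The array at 6.0 μg/cm2 was above that at 3.0 μg/cm2 in 21 of 21 pairs, and hence also above the control array. These pairs come from 7 probes on the same 3 slides and are not independent. The share over all probes was not counted.
When the doses were tested against each other at 24 h, 1 of 7 tested probes was called, against 1.64% of all 22141 probes. This was CXCL8, with a log2 difference of 0.60 (SE 0.11, adjusted p = 0.0232 with limma), and the call was lost when any array was omitted other than replicate 2 at 3.0 μg/cm2, and under 5 other settings. CXCL1 (A_23_P7144), CXCL2 on both probes and CXCL3 passed the adjusted p with log2 differences of 0.29, 0.45, 0.42 and 0.33, under the fold threshold, with limma adjusted p between 0.0157 and 0.0305. The difference for CXCL5 was 0.23 (95% confidence interval 0.09 to 0.38, adjusted p = 0.0646 with limma).

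**Figure D3:**
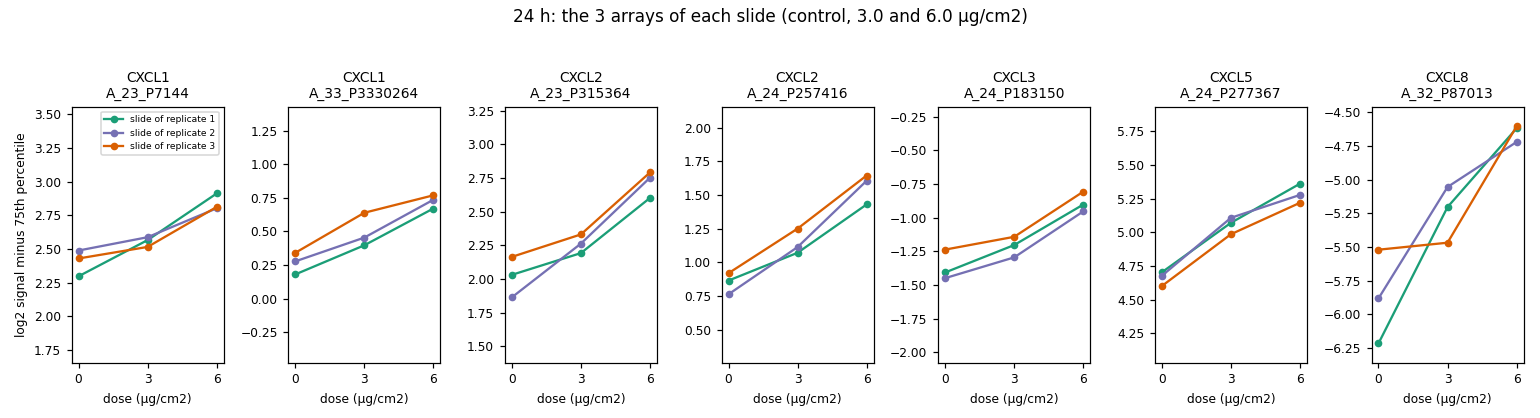
For each tested chemokine probe, log2 signal minus the 75th percentile (vertical axis, the same span in every panel) against dose in μg/cm2 (horizontal axis) at 24 h, with 1 line for each of the 3 slides. Every line rises from 0 to 3.0 and from 3.0 to 6.0 μg/cm2, and for CXCL8 the first step was 0.05 on the slide of replicate 3 and 1.01 and 0.83 on the others. The share of all probes that rose in this way was not counted.

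In control cells, CXCL1 and CXCL5 fell between 24 h and 72 h. Of 7 tested probes, 4 were called lower, against 20.1% of all 22133 probes, and these belonged to CXCL1 (both probes), CXCL5 and CXCL8. CXCL1 (A_23_P7144) went from 2.30, 2.49 and 2.43 at 24 h to 1.41, 1.51 and 1.33 at 72 h and fell by 0.99 on the log2 scale (SE 0.08, adjusted p = 0.000205 with limma), and its other probe fell by 0.66 (SE 0.07, 0.000504). CXCL5 went from 4.70, 4.68 and 4.60 to 3.85, 4.06 and 4.05 and fell by 0.67 (SE 0.07, adjusted p = 0.000636 with limma). CXCL8 read −8.02, −7.24 and −7.59 at 72 h and stood below this level on all of these arrays, so that it was at least 1.58-fold lower than at 24 h (adjusted p = 0.0014 with limma). It passed the filter only through the 24 h arrays, and with probes well above background on every array the count was 3, without CXCL8. This bound compares the 24 h mean with a floor for each 72 h array, taken as the dimmest probe well above background there or as CXCL8 itself where that was brighter. With normexp the CXCL8 difference was −0.02 (adjusted p = 0.902 with limma).
The CXCL2 probes were −0.41 and −0.32 apart between the times (adjusted p = 0.00827 and 0.006 with limma), under the fold threshold, and CXCL3 differed by −0.08 (95% confidence interval −0.31 to 0.16). All 6 of these control arrays were scanned on the same day and each slide held both times, so that these differences lie within slides. The 24 h array always lay at position 1 of the slide and the 72 h array at position 4. Time and position thus cannot be told apart.

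After 72 h of exposure, CXCL1 and CXCL2 were the chemokines that passed both thresholds against the 72 h controls. At 3.0 μg/cm2, 1 of 6 tested probes was called, against 5.91% of all 21959 probes, and at 6.0 μg/cm2, 3 of 6, against 17.1% of all 21859. All 6 probes lay above every control array at both doses, and the share of all probes that separated so was not counted. An unadjusted p under 0.05 in limma was reached by all 6, against 41.7% and 53.9% of all probes. The median log2 fold changes of the 6 probes were 0.41 and 0.60, and those of all probes tested 0.03 and 0.04. The exposed arrays at 72 h were scanned on another day than their controls and lay on other slides, so that scan day, slide and exposure cannot be told apart here.
CXCL1 (A_23_P7144) read 1.41, 1.51 and 1.33 on control arrays, 2.09, 2.08 and 2.22 at 3.0 μg/cm2 and 2.13, 2.25 and 2.12 at 6.0 μg/cm2. Both exposed groups stood clear of the controls and overlapped each other. The log2 fold changes were 0.71 at 3.0 μg/cm2 (SE 0.07, adjusted p = 0.00248 with limma) and 0.75 at 6.0 μg/cm2 (SE 0.08, 0.000509). The other CXCL1 probe gave 0.44 (SE 0.06, adjusted p = 0.00765 with limma) and 0.56 (SE 0.07, 0.00128), so that the probes of this gene agreed in direction and differed by 0.27 and 0.20 in size.
CXCL2 (A_23_P315364) read 1.54, 1.70 and 1.57 on control arrays, 1.87, 1.79 and 2.02 at 3.0 μg/cm2 and 2.30, 2.34 and 2.10 at 6.0 μg/cm2. The log2 fold changes were 0.29 (SE 0.08, adjusted p = 0.0435 with limma) and 0.64 (SE 0.09, 0.00168), and 0.38 and 0.66 on the other probe. Here the groups stood in the order of the dose without overlap.
CXCL5 read 3.85, 4.06 and 4.05 on control arrays, 4.41, 4.47 and 4.57 at 3.0 μg/cm2 and 4.38, 4.33 and 4.27 at 6.0 μg/cm2. Its log2 fold change was thus 0.50 at 3.0 μg/cm2 (SE 0.08, adjusted p = 0.00945 with limma) and 0.34 at 6.0 μg/cm2 (SE 0.08, 0.0138), neither past the fold threshold. CXCL3 gave 0.25 and 0.28 with limma adjusted p of 0.0854 and 0.0701.
CXCL8 was not tested at 72 h, since no group was well above background on all of its arrays. It read −8.02, −7.24 and −7.59 on control arrays, −6.07, −6.15 and −5.83 at 3.0 μg/cm2 and −6.63, −6.00 and −7.00 at 6.0 μg/cm2. The control arrays were the lowest, without overlap with either dose. At 3.0 μg/cm2, where 2 of 3 arrays were well above background, CXCL8 was at least 1.43-fold higher than in control cells. At 6.0 μg/cm2 no array of either group was well above background, and no fold change is given.
Between the doses at 72 h, 0 of 6 tested probes were called, against 4.85% of all 21611 probes. The CXCL2 probes were 0.35 and 0.29 higher at 6.0 than at 3.0 μg/cm2 (adjusted p = 0.0548 and 0.08 with limma). CXCL1 differed by 0.04 and 0.12 (95% confidence intervals −0.13 to 0.21 and −0.05 to 0.28) and CXCL3 by 0.02. CXCL5 was lower at 6.0 μg/cm2 on every array, by −0.16 on average (95% confidence interval −0.32 to 0.00, adjusted p = 0.157 with limma).

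**Figure D4:**
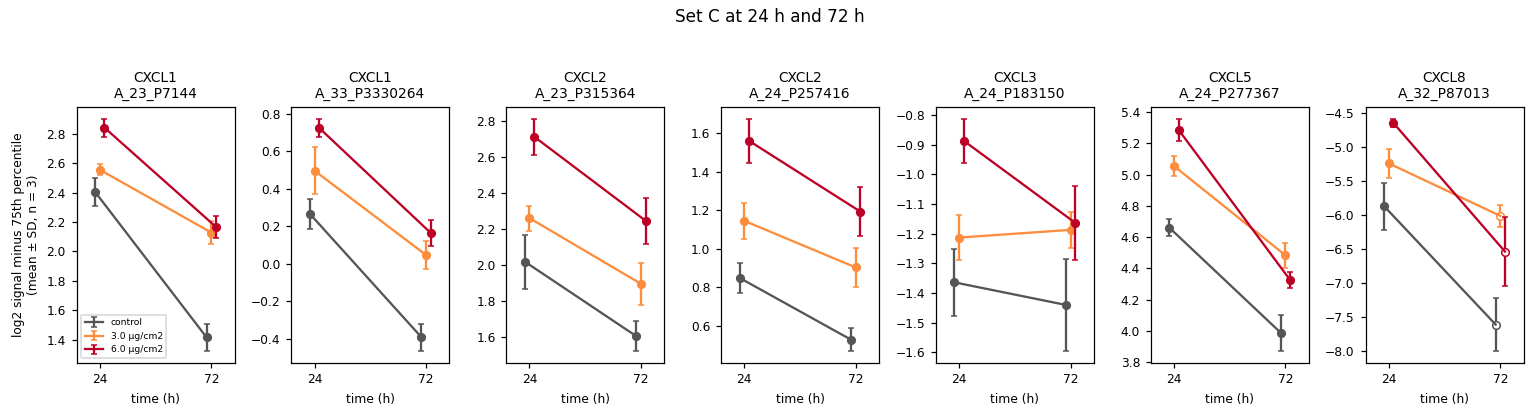
Mean log2 signal minus the 75th percentile (vertical axis, error bars are SD, n = 3 arrays) at 24 h and 72 h (horizontal axis) in control cells and at 3.0 and 6.0 μg/cm2 in set C, 1 panel per tested probe. Open points mark groups in which not all 3 arrays were well above background, which are those of CXCL8 at 72 h; CXCL1 falls by 0.99 on A_23_P7144 in control cells between the times.

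Whether the response at 72 h differed from that at 24 h was tested as an interaction. At 3.0 μg/cm2, 1 of 7 tested probes was called, against 5.33% of all 22621 probes. This was CXCL8, which passed the filter only through the 24 h groups and had no 72 h control array well above background, so that its fitted interaction of 0.97 (SE 0.31, adjusted p = 0.0491 with limma) is no measured size. With probes well above background on every array the count was 0, and the sign turned with normexp (−0.09, adjusted p = 0.671 with limma) and with the series matrix values (−0.35, 0.306). CXCL1 (A_23_P7144) had a 0.56 larger difference at 72 h (SE 0.10, adjusted p = 0.00443 with limma), a 1.48-fold difference under the fold threshold, while its other probe gave 0.21 (adjusted p = 0.186 with limma). At 6.0 μg/cm2, 0 of 7 probes were called, against 17.2% of all 22608 probes. CXCL1 (A_23_P7144) had a 0.31 larger difference at 72 h (SE 0.10, adjusted p = 0.0318 with limma) and CXCL5 one that was smaller, at −0.29 (SE 0.10, 0.0383), and both were under the fold threshold. For CXCL2 the interaction was −0.05 on both probes, with 95% confidence intervals from −0.35 to 0.24 and from −0.30 to 0.21.
Set in order of level over the 6 groups of set C, all 7 probes other than that of CXCL6 had their highest mean at 6.0 μg/cm2 and 24 h and their lowest in the 72 h controls. The share of all probes with this order was not counted. For CXCL8 no 72 h control array was well above background, so that its lowest place rests on signals near background. On CXCL1 (A_23_P7144) the means were 2.84, 2.56, 2.40, 2.17, 2.13 and 1.42 for 6.0 μg/cm2, 3.0 μg/cm2 and control at 24 h and then 6.0 μg/cm2, 3.0 μg/cm2 and control at 72 h, and only the exposed groups at 72 h overlapped their neighbor in this order. The exposed cells at 72 h thus stood below the control cells at 24 h on this probe and on CXCL5, without overlap, whereas on the other CXCL1 probe the group at 6.0 μg/cm2 and 72 h (0.17) overlapped the 24 h control cells (0.27). The exposed arrays at 72 h lay on other slides and had another scan day than the other groups of set C. Between exposed cells at 72 h and control cells at 24 h, time, exposure, slide and scan day thus cannot be told apart. On CXCL5 the means were 5.29, 5.05 and 4.66 at 24 h, then 4.48 at 3.0 μg/cm2, 4.33 at 6.0 μg/cm2 and 3.99 in control cells at 72 h, with no overlap between neighbors. On CXCL2 (A_23_P315364) 3.0 μg/cm2 at 24 h (2.26) and 6.0 μg/cm2 at 72 h (2.25) overlapped, and the control cells at 24 h (2.02) overlapped both exposed groups of 72 h. On CXCL3 the group at 6.0 μg/cm2 and 24 h (−0.89) stood clear and each of the other groups, between −1.16 and −1.44, overlapped its neighbor.

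The genes that act with these chemokines were taken as lists. Of the receptors CXCR1 and CXCR2 and the decoy receptor ACKR1, 0 passed the filter in any comparison, with 8, 3 and 1 arrays well above background. Among 11 other CXC chemokines on the array 3 could be tested. PF4, a platelet chemokine that does not attract neutrophils through CXCR2 and lies between CXCL1 and CXCL5 on the chromosome, fell by 0.66 at 6.0 μg/cm2 after 24 h (SE 0.06, adjusted p = 0.000588 with limma) and by 0.85 after 72 h (SE 0.08, 0.000371). CXCL12 and CXCL16, which act on lymphocytes and other cells, were tested and not called.
Of the inducers, receptors and signal carriers of the NF-kB route, 24 were tested at 6.0 μg/cm2 and 24 h. Of these, 6 were higher and 1 lower, beside 3.95% of all probes higher and 5.37% lower. The feedback inhibitors TNFAIP3 and NFKBIA rose by 1.56 (SE 0.11, adjusted p = 0.000212 with limma) and 0.70 (SE 0.05, 0.000183) on the log2 scale, the co-activator NFKBIZ by 0.74, the transcription factor CEBPB by 0.72 and the receptor TLR4 by 0.95. The cytokine TNF was well above background on all 3 exposed arrays and on 0 control arrays and was at least 1.60-fold higher (adjusted p = 0.0135 with limma). FOS, a subunit of AP-1, fell by 0.73 (SE 0.07, adjusted p = 0.000614 with limma). TNF and TLR4 passed the filter only through the exposed arrays, so that their calls lend the count no support. The list had a median log2 fold change of 0.08, against −0.03 over all probes.
At 72 h and 6.0 μg/cm2, 2 of 23 tested genes of this list were higher and 4 lower, beside 6.63% of all probes higher and 10.5% lower. TNFAIP3 rose by 0.59 and the kinase IRAK1 by 0.62, while FOS fell by 1.35, the interleukin 1 receptor gene IL1R1 by 0.89 and IRAK4 by 0.65, and IL1B, which passed only through the control arrays, was at least 1.48-fold lower. In the interaction at 6.0 μg/cm2, 7 of 25 tested genes of the list were called and all 7 were lower at 72 h, among them NFKBIA (−0.93, adjusted p = 9.37e-06 with limma), TNFAIP3 (−0.97, 0.00346) and CEBPB (−1.02, 0.000118). Over all probes in the same fit, 8.11% were called higher and 9.09% lower, and the chemokine probes had 0 calls, as given above.
Of 7 regulators of mRNA decay, 0 were called at 24 h and 6.0 μg/cm2, against 9.32% of all probes. At 72 h ZFP36 and ZFP36L2, which bind AU-rich elements and speed the decay of such mRNAs, fell by 0.68 and 0.67 (adjusted p = 0.00152 and 0.00448 with limma). Among other factors that act on neutrophils, 5 of 9 tested rose at 6.0 μg/cm2 and 24 h and 1 fell. Over all probes, 3.95% were higher and 5.37% lower in this comparison. The rises were those of IL6 (3.73, SE 0.12, adjusted p = 2.23e-05 with limma), PTX3 (2.19), SAA1 (1.74), the adhesion molecule ICAM1 (1.66) and CSF2, the granulocyte-macrophage growth factor, which was at least 1.32-fold higher and, with 0 control arrays well above background, passed the filter only through the exposed arrays. Complement C5 fell by 0.97. At 72 h, 3 of 8 rose (IL6 2.27, ICAM1 0.79 and PTX3, which was at least 5.65-fold higher and likewise passed only through the exposed arrays) and 3 fell (LCN2, C3 and C5, by 2.24, 1.33 and 1.20). Over all probes, 6.63% were higher and 10.5% lower at this time.

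The 6 chemokine genes and 15 further protein-coding genes lie within 1 Mb of the stretch from CXCL8 to CXCL2. At 6.0 μg/cm2 and 24 h, 9 of these neighbors were tested, of which 2 were higher and 2 lower, beside 3.95% and 5.37% of all probes. EREG and AREG, ligands of the epidermal growth factor receptor that lie beyond CXCL2, rose by 1.49 (SE 0.09, adjusted p = 0.000115 with limma) and 0.59 (SE 0.06, 0.000811), and RASSF6, which lies next to CXCL8, fell by 0.86 (SE 0.12, 0.00243), as did PF4. BTC, a further ligand of the same receptor beyond AREG, differed by 0.09 (adjusted p = 0.508 with limma). At 72 h, 2 of 10 tested neighbors were higher and 4 lower, beside 6.63% and 10.5% of all probes. EREG and AREG rose by 1.89 and 1.18, RASSF6, PF4 and PARM1 fell by 0.64, 0.85 and 1.01, and ALB, the gene of serum albumin, was at least 3.20-fold lower. ALB passed the filter only through the control arrays, so that its call lends the count no support. Genes side by side on the chromosome thus moved in both directions.

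**Figure D5:**
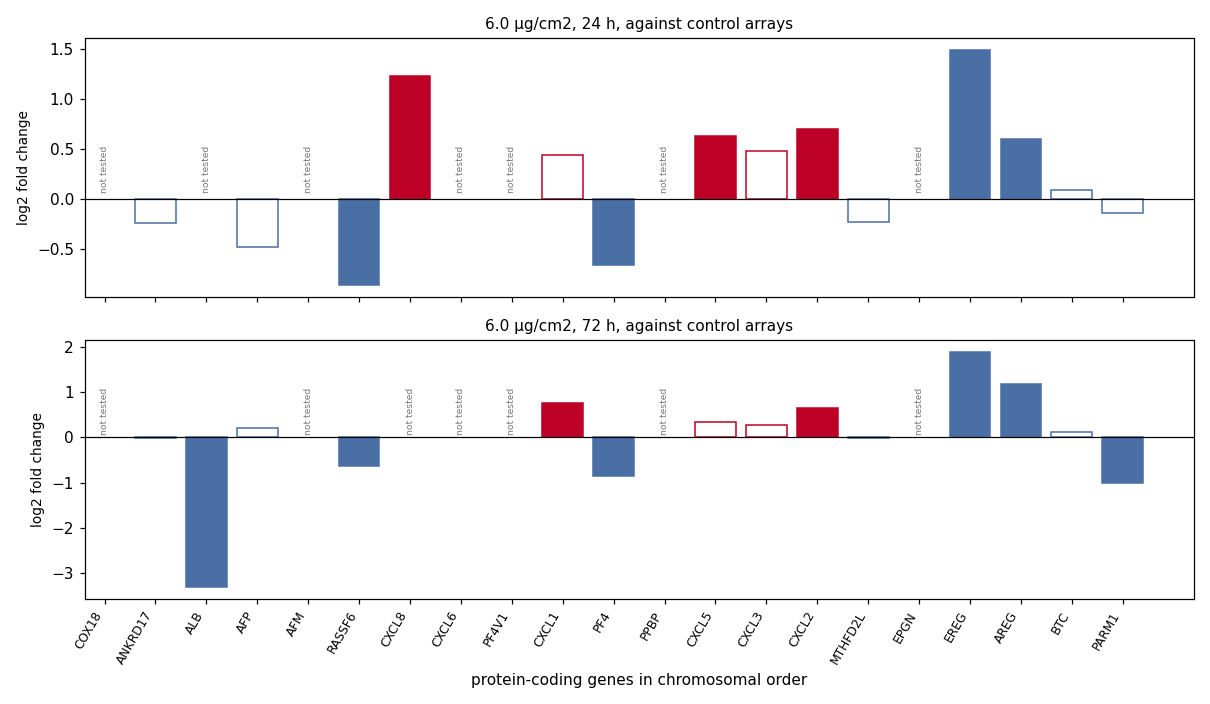
Log2 fold change at 6.0 μg/cm2 against control cells (vertical axis) of the protein-coding genes around the chemokine genes, in chromosomal order and not to scale (horizontal axis), at 24 h above and 72 h below; red bars are the chemokines, filled bars passed both thresholds. EREG and AREG stand above 0 and RASSF6 and PF4 below 0 at both times; the bar of ALB at 72 h is a fitted value for a gene not well above background on any exposed array.

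The transcripts that ran most closely with the brightest probe of each chemokine were ranked by Pearson's correlation over all 38 arrays, after the mean of its own controls was taken from each array. The ranking is a description, since the arrays share slides and controls. Among 18162 probes with a gene symbol, the nearest to CXCL8 were ANTXR1 (r = 0.84), SOCS2 (0.81) and CCL20 (0.81), the last of which is a chemokine for dendritic cells and lymphocytes. Nearest to CXCL2 were HKDC1 (0.90), GFPT2 (0.89) and EREG (0.89), and nearest to CXCL1 CPLANE2 (0.90), KCNMA1 (0.90) and HAUS2 (0.89). CXCL5 ran with SOCS5 (0.88), MAP1LC3B (0.87) and FOXN2 (0.86), and CXCL3 with MOSPD1 (0.86), ADSS2 (0.85) and CD47 (0.85). Among the chemokines, the probes of CXCL2 had a correlation of 0.88 with each other and those of CXCL1 0.77, and probes of different genes other than CXCL6 ranged from 0.48, for CXCL1 (A_23_P7144) and CXCL3, to 0.91, for CXCL1 (A_33_P3330264) and CXCL2 (A_24_P257416).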

How the data were processed

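Total RNA of A549 cells was labeled with Cy3 and hybridised to 38 single-dye Agilent arrays. The authors deposited the scanner output (Agilent Feature Extraction 10.10.1.1 for 12 arrays and 11.0.1.1 for 26), in which the processed signal is an intensity corrected for background and not normalized between arrays. The deposited flags mark outlier spots and spots well above background. The deposited series matrix holds uncorrected median intensities.

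The 75th percentile of each array (740.4 to 3202) was subtracted on the log2 scale, the 0.612% of non-control spots flagged as outliers were dropped, and replicate spots were averaged. A probe was tested with limma 3.58.1 (lmFit and eBayes, R 4.3.3, tested on simulated data) where all arrays of 1 or more groups had it well above background. Motifs and figures used Python 3.11.15, Biopython 1.88 and matplotlib 3.10.9. A gene on a list was represented by its brightest probe. Chemokines and lists were chosen with earlier results of these data known. Named were all chemokine probes, list genes past the thresholds at 6.0 μg/cm2 against control cells, at most 3 more per list, genes within 1 Mb, and the 3 most correlated genes. Arrays with the same replicate number deviated together at 6.0 against 3.0 μg/cm2, at 24 h (correlations 0.25 to 0.29) and at 72 h (0.15 to 0.60), and the replicate block changed neither count there. The files hold median and not mean spot signals, so that normexp was run on medians. The number of arrays limits the precision, and p-values measure the spread between arrays.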

Additional observations from a re-analysis of the deposited data

Results flagged for a closer look

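In groups of 4 arrays, 2 of 40 combinations of probe and group held an array far from the others, which is what chance gives at about 1 in 20. CXCL8 read −4.81 on the array of replicate 1 at 1.0 μg/cm2, against −4.04 to −3.99 on the others. CXCL6 read −8.09 on replicate 4 at the same dose, against −9.21 to −9.03, none of them well above background.

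The difference from control cells was not the same at 72 h and at 24 h, by an interaction in limma with adjusted p under 0.05, for 1 of the 2 CXCL1 probes and for CXCL5. At 3.0 μg/cm2 it was larger at 72 h by 0.56 for CXCL1 (A_23_P7144) and by 0.21 on the other CXCL1 probe (adjusted p = 0.186 with limma). The fitted 0.97 of CXCL8 at this dose also passed that p, but no 72 h control array was well above background for it, and its sign turned with normexp (−0.087) and with the series matrix values (−0.35). At 6.0 μg/cm2 the difference from control cells was larger by 0.31 for CXCL1 (A_23_P7144) and changed by −0.29 for CXCL5. On the other CXCL1 probe it was larger by 0.10 (adjusted p = 0.42 with limma). An unadjusted p under 0.05 in limma was reached by 2 of 7 chemokine probes at each dose, against 35.4% and 47.2% of all probes. In control cells CXCL1 fell by 0.99 between the times on A_23_P7144, and the 72 h exposed arrays had a scan day of their own. The part of either in these differences was not tested.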

How the results depend on the processing

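Over the alternatives, values of called chemokine probes kept their call in 212 of 244 cases, lost it in 30 and turned their sign in 2. Counts of called probes at 0.1, 1.0 and 1.5 μg/cm2 stayed at 0 throughout. With normexp, run on median signals with an offset of 50 that is larger than the CXCL8 signals of set C, 2 probes were called at 6.0 μg/cm2 and 24 h (both of CXCL2), 2 between the controls of 72 h and 24 h, 0 between the doses at 24 h and 0 in the interaction at 3.0 μg/cm2, where CXCL8 turned to −0.087. The series matrix values turned it to −0.35 and gave 0 calls between the doses at 24 h and 1 in the interaction at 6.0 μg/cm2 (CXCL8). Without the fold threshold the counts were 2 and 7 at 3.0 and 6.0 μg/cm2 after 24 h, 5 and 5 after 72 h, 5 between the doses at 24 h, and 2 and 2 in the interactions. Without the filter on dim probes there were 2 calls at 3.0 μg/cm2 and 72 h (CXCL8 added), 0 between the doses at 24 h and 0 in the interaction at 3.0 μg/cm2. Between the doses at 24 h, the methods' t-test with adjustment and 1 fit over all arrays of the set each gave 0. The interaction at 3.0 μg/cm2 gave 0 with quantile normalization, with probes well above background on every array and with 1 fit over all arrays. Where the setting's own construction does not show it, the cause was not tested.

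With the replicate number as a block, the interaction at 3.0 μg/cm2 gave 0 calls, and the block changed no other count. Leaving out 1 array at a time gave 0 to 1 calls at 3.0 μg/cm2 and 24 h (1 without control replicate 3), 4 to 4 at 6.0 μg/cm2 and 24 h, 1 to 2 at 3.0 μg/cm2 and 72 h (2 without exposed replicate 2), 3 to 4 at 6.0 μg/cm2 and 72 h, and 0 to 1 between the doses at 24 h. The interaction at 3.0 μg/cm2 gave 0 to 2, with 2 without replicate 1 of the 24 h controls or replicate 2 of the 72 h controls, 1 without replicate 2 at 3.0 μg/cm2 and 72 h, and 0 without any other array. The methods' t-test was not run for the interactions. Signal over background limits CXCL8 at 72 h and CXCL6 everywhere.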
